A study of Mus musculus with 24 samples.

Results

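The genes described are 9 regulators of muscle differentiation and cell fusion: the 4 myogenic regulatory factors Myod1, Myf5, Myog and Myf6, the 3 MEF2 factors Mef2a, Mef2c and Mef2d, the muscle stem cell factor Pax7, and Mymk, which encodes the fusion protein myomaker. Each was read from the array's transcript cluster, the set of probes assigned to a locus, whose only gene symbol is that gene, and from the cluster with the highest mean where a gene had several. All 9 of 9 genes were measured, among 22180 genes tested. RNA came from primary quadriceps muscle cells of ICR mouse offspring and was read on 24 single-colour arrays, 6 in each of 4 groups. Cells of offspring of undernourished dams were kept in limited or in standard medium, and cells of offspring of control dams in the same 2 media. From day 12.5 of pregnancy until birth, undernourished dams were given 50% of the chow eaten by controls, which fed freely. The limited medium was used overnight and contained glucose at 0.5 mM, glutamine at 1 mM, carnitine at 0.5 mM and fetal bovine serum at 1%. The standard medium, in which cells near confluence were differentiated, held 5.5 mM glucose and 2% fetal bovine serum. Glucose, serum and the other components changed together, so the media cannot be told apart by component. Each array also carries 1 of 12 culture numbers, 6 per maternal diet, and each number has 1 array in limited and 1 in standard medium. The labels do not say whether a number is an animal, a litter or a flask, nor the age of the offspring, so the spread that p-values measure may be partly technical.

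Myogenic regulatory factors are basic helix-loop-helix proteins that pair with E proteins and bind E-boxes in muscle genes. Myf5 and Myod1 act in commitment of precursors to the muscle lineage, Myog drives terminal differentiation, and Myf6, also called MRF4, is associated with later stages and with mature fibres. MEF2 proteins bind AT-rich sites in many of the same genes and act together with the helix-loop-helix factors, while class IIa histone deacetylases repress them. Pax7 marks satellite cells, the stem cells of adult muscle, and declines as they differentiate. Myomaker sits in the membrane of myoblasts and is needed for their fusion into multinucleated fibres, together with the small protein myomixer, encoded by Mymx.

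The Myog promoter is shown because E-box and MEF2-type motifs lie close together in it and because the levels of Myod1 and Myog varied together over cultures, as given further on. The window covers the 250 bases before the annotated start, at chr1:134289754-134290003 on the plus strand (RefSeq, GRCm38.p6). Capitals mark 2 matches to the E-box CANNTG, which reads the same on both strands, and 1 match to CTANNNNTA, searched on both strands as a MEF2-type motif and chosen after the sequence had been read.
Myog promoter: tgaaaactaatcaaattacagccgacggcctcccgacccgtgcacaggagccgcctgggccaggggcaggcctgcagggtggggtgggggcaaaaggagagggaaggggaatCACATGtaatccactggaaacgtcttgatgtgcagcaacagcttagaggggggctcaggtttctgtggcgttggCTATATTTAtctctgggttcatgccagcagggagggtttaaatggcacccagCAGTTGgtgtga
The E-boxes began 138 and 12 bases before the start and the AT-rich match 64 bases before it, with no overlap between them. Of 32851 promoter windows of this length, 66.2% held a CANNTG and 19% held a CTANNNNTA on either strand. The matches describe letters and do not show binding. RefSeq promoter entries matched 6 of the 9 genes. A Mef2c window, at chr13:83573357-83573606, also held 1 CANNTG and 1 CTANNNNTA, so having both motifs was not particular to Myog. The other Mef2c windows held 2 and 0 CANNTG and no CTANNNNTA. The Myf5 window held 2 CTANNNNTA and 0 CANNTG, and those of Mef2d, Pax7 and Mef2a held neither motif.

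With limma on the 4 groups, without the culture number in the fit, none of the 9 genes passed for the medium or for the maternal diet. Over both maternal diets, Myf5 had the largest difference between media, 0.48 ± 0.19 (SE) on the log2 scale, and its adjusted p of 0.135 in that fit was above the threshold of 0.05. With the culture number as a block, which compares the media within each number, Myf5 alone passed over both diets (adjusted p = 0.00544, limma). Mymk, Myod1 and Mef2d differed between media by 0.02 or less on the log2 scale, with 95% intervals within 0.24 of 0. Between maternal diets, over both media, the 9 differences were at most 0.08 in size. The 9 genes varied from culture to culture to very different degrees, from an SD of culture means of 0.87 in Myf6 to 0.11 in Mymk and Mef2d. The values are log2 signals, and since probes differ in brightness no gene's level is compared with another's. In bulk RNA, fewer cells of a type and less RNA per cell cannot be told apart.

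**Figure D1:**
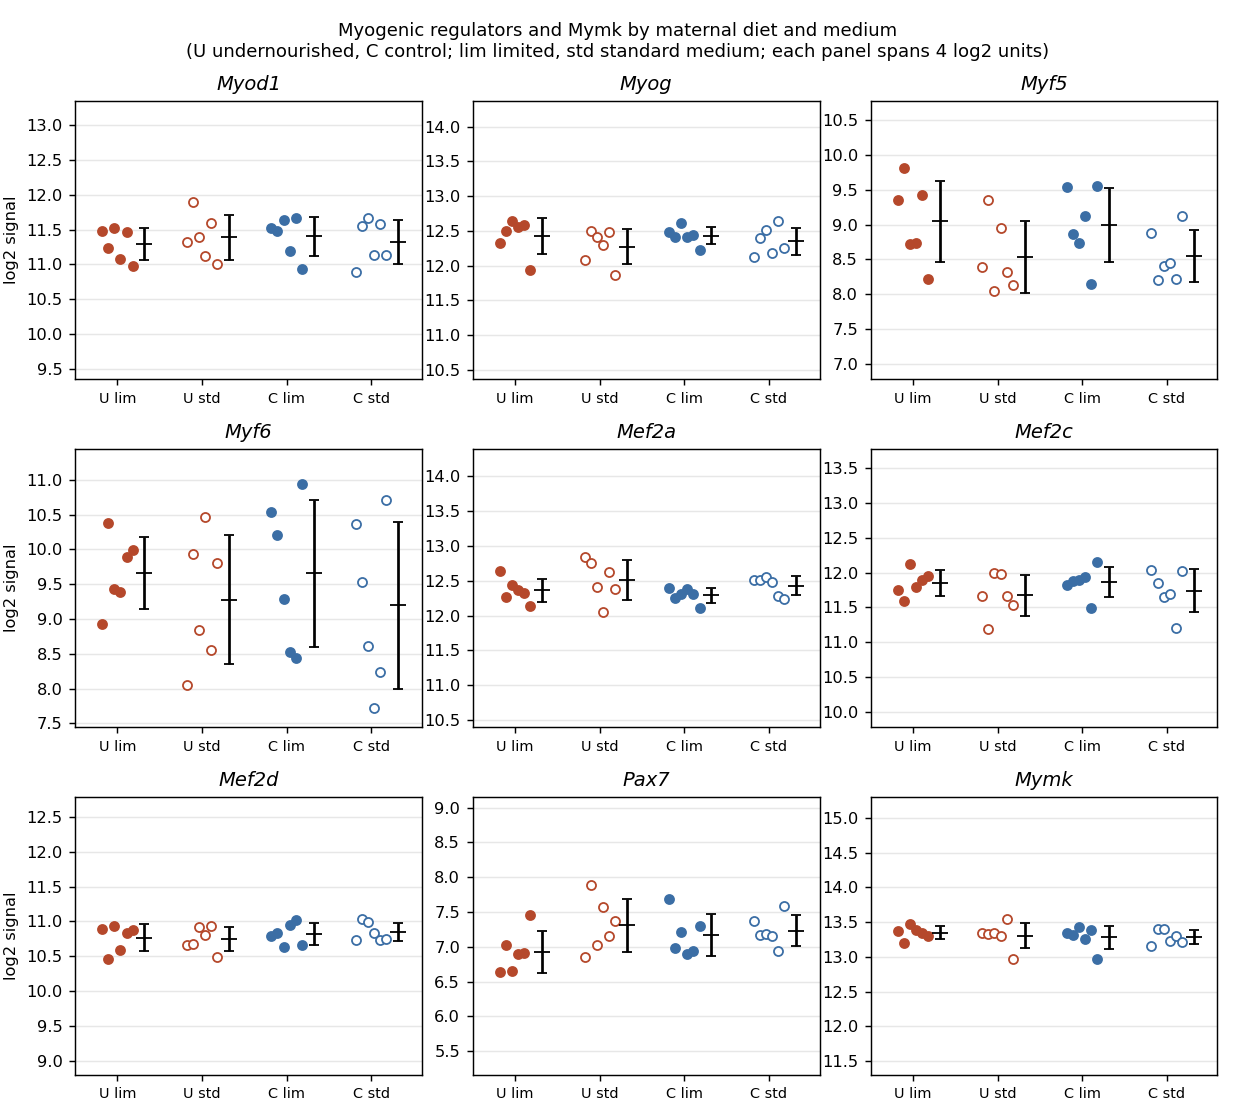
Log2 signal of the 9 genes on each array (vertical axis, 4 log2 units in every panel) in the 4 groups of maternal diet and medium; dots are arrays, and bars are the mean and SD of 6 arrays. All groups of every gene overlap, and Myf6 and Myf5 spread most.

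Myf5 was the commitment factor with the larger differences between media. In undernourished cultures its log2 signal ran from 8.22 to 9.82 with a median of 9.05 in limited medium, against 8.04 to 9.35 with a median of 8.36 in standard medium. In control cultures it ran from 8.14 to 9.55 with a median of 9.00 in limited medium, against 8.20 to 9.12 with a median of 8.43 in standard medium. The limited arrays lay higher at the median for both diets, and the groups overlapped. The limited arrays were higher in 10 of 12 cultures, 5 of 6 with each diet, and lower in undernourished culture 9 and control culture 16. The difference over both diets corresponded to 1.40-fold, with a 95% interval on the log2 scale of 0.09 to 0.87 (unadjusted p = 0.0175, adjusted p = 0.135, limma). With the culture number as a block the SE was 0.10 and Myf5 passed (adjusted p = 0.00544, limma), where 11.7% of all genes were called. Within the diets the difference was 0.51 ± 0.27 in undernourished cultures (adjusted p = 0.422) and 0.45 ± 0.27 in control cultures (adjusted p = 0.491). Without cultures 16 and 20, which had high fibroblast and glial transcripts and the 2 lowest Myf5 means, the difference was 0.58 ± 0.18 with an adjusted p of 0.04999, at the threshold, where 7.46% of all genes were called. In cultures 16 and 20 the media differed by -0.08 and 0.09, so leaving them out was bound to raise the mean difference.

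Myod1 showed no such shift. Its signal ran from 10.97 to 11.52 with a median of 11.35 in undernourished limited arrays, against 11.01 to 11.89 with a median of 11.35 in undernourished standard arrays. The control limited arrays lay between 10.94 and 11.67 with a median of 11.50, against 10.89 to 11.67 with a median of 11.34 in control standard arrays. The groups overlapped almost completely, and 5 of 12 cultures were higher in limited medium. Cultures 4 and 5 moved furthest and in opposite directions: undernourished culture 4 had 11.23 in limited and 11.89 in standard medium, whereas control culture 5 had 11.52 in limited and 10.89 in standard medium. The mean difference over both diets was -0.01 ± 0.11 (95% interval -0.24 to 0.22, adjusted p = 0.981).

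Myog, the switch to terminal differentiation, overlapped between all groups. It lay between 11.94 and 12.65 with a median of 12.52 in undernourished limited arrays, against 11.87 to 12.49 with a median of 12.35 in undernourished standard arrays. It lay between 12.23 and 12.61 with a median of 12.43 in control limited arrays, against 12.13 to 12.64 with a median of 12.33 in control standard arrays. In 9 of 12 cultures the limited array was the higher, and both arrays of undernourished culture 20 were the lowest of all, at 11.94 and 11.87. The difference between media was 0.12 ± 0.09 (95% interval -0.06 to 0.29, adjusted p = 0.489).

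Myf6 spread most of the 9 genes. In undernourished cultures it ran from 8.93 to 10.37 with a median of 9.66 in limited medium, against 8.05 to 10.46 with a median of 9.33 in standard medium. In control cultures it ran from 8.43 to 10.94 with a median of 9.75 in limited medium, against 7.72 to 10.70 with a median of 9.07 in standard medium. The range within each group was wider than the distance between groups. Limited arrays were higher in 11 of 12 cultures, by 0.17 to 1.33. The exception was undernourished culture 9, with 9.38 in limited and 10.46 in standard medium. The mean difference of 0.42 ± 0.35 had a 95% interval of -0.30 to 1.15 and an adjusted p of 0.554, in the fit that does not use the culture number. With the culture number as a block the SE was 0.14, and Myf6 did not pass (unadjusted p = 0.00914, adjusted p = 0.0668, limma).

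Over both diets, the MEF2 factors differed between media by at most 0.15. Mef2a ran from 12.14 to 12.64 with a median of 12.34 in undernourished limited arrays, against 12.05 to 12.84 with a median of 12.52 in undernourished standard arrays. It ran from 12.10 to 12.40 with a median of 12.30 in control limited arrays, against 12.24 to 12.55 with a median of 12.49 in control standard arrays. In 9 of 12 cultures the limited array had less Mef2a, with a difference of -0.15 ± 0.08 that did not pass (adjusted p = 0.293). With the culture number as a block Mef2a did not pass either (unadjusted p = 0.0377, adjusted p = 0.166, limma). Mef2c, the form most studied in muscle differentiation, lay between 11.59 and 12.12 with a median of 11.84 in undernourished limited arrays, against 11.19 to 12.00 with a median of 11.67 in undernourished standard arrays. Its control limited arrays lay between 11.49 and 12.15 with a median of 11.89, against 11.21 to 12.03 with a median of 11.77 in control standard arrays. It was higher in limited medium in 10 of 12 cultures, with a difference of 0.15 ± 0.10 that did not pass (adjusted p = 0.436). The block left Mef2c short of the threshold as well (unadjusted p = 0.0328, adjusted p = 0.152, limma). A second Mef2c cluster averaged 8.67 ± 0.19 in undernourished limited and 8.45 ± 0.65 in undernourished standard arrays (SD, n = 6). In control cultures this cluster averaged 8.81 ± 0.21 in limited and 8.46 ± 0.47 in standard medium, higher in limited medium as with the first. Mef2d stayed between 10.47 and 11.03 on all 24 arrays, with group medians of 10.85 and 10.74 in undernourished limited and standard arrays and of 10.81 and 10.79 in control limited and standard arrays. It was higher in limited medium in 6 of 12 cultures (difference -0.01 ± 0.07, adjusted p = 0.974).

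Pax7 differed most between media in undernourished cultures. There it ran from 6.63 to 7.46 with a median of 6.91 in limited medium, against 6.85 to 7.89 with a median of 7.26 in standard medium. In control cultures it ran from 6.90 to 7.69 with a median of 7.10 in limited medium, against 6.93 to 7.58 with a median of 7.18 in standard medium. The groups overlapped, and limited arrays were lower in 5 of 6 undernourished and 3 of 6 control cultures. The difference was -0.38 ± 0.17 in undernourished cultures (unadjusted p = 0.0311, adjusted p = 0.303) and -0.06 ± 0.17 in control cultures (adjusted p = 0.921). The difference between these medium effects was -0.32 ± 0.23 and did not pass either (unadjusted p = 0.185, adjusted p = 0.9998), so the diets are not shown to differ in it.

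Mymk had the smallest SD of the 9 genes over all arrays. It lay between 13.20 and 13.47 with a median of 13.36 in undernourished limited arrays, against 12.98 to 13.54 with a median of 13.33 in undernourished standard arrays. In control cultures it lay between 12.97 and 13.43 with a median of 13.32 in limited medium, against 13.16 to 13.40 with a median of 13.26 in standard medium. The groups overlapped, with a difference over both diets of 0.02 ± 0.06 and a 95% interval of -0.11 to 0.14 (adjusted p = 0.915). Its fusion partner Mymx averaged 7.01 ± 0.31 in undernourished limited and 7.13 ± 0.46 in undernourished standard arrays, and 7.26 ± 0.41 in control limited and 7.12 ± 0.32 in control standard arrays (SD, n = 6).

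**Figure D2:**
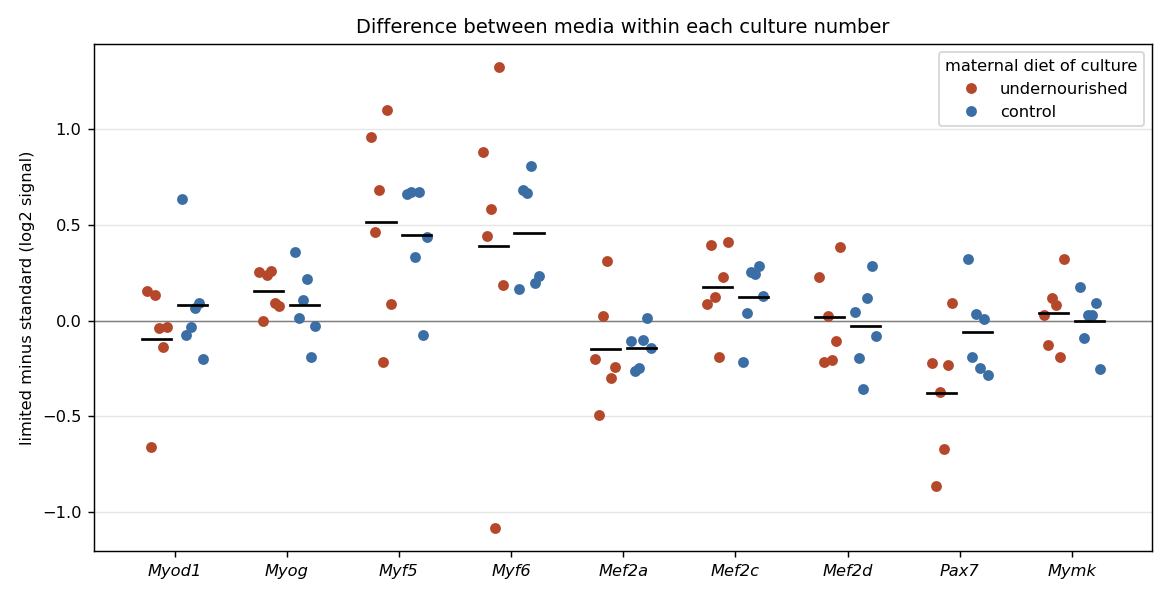
Log2 signal in limited minus standard medium (vertical axis) for each culture number and gene; dots are cultures, coloured by maternal diet, and black lines are means of 6 cultures. Most Myf5, Myf6 and Mef2c dots lie above 0, most Mef2a dots below it, and Myf6 of undernourished culture 9 lies lowest at -1.08.

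Counted over all genes, limma called 6.84% for the medium over both diets, 1.46% within undernourished cultures and 0.343% within control cultures. Of the 9 genes, 0 were called in each of these comparisons. Refitted on genes with a mean at or above the median, limma called 16.2% over both diets and 0 of the 9. At an unadjusted p under 0.05, 1 of 9 lay in the comparison over both diets (Myf5), 1 in undernourished cultures (Pax7) and 0 in control cultures, against 20.3%, 13.4% and 13.1% of all genes. With the culture number as a block, 5, 2 and 2 of the 9 lay there in limma, against 25.3%, 17.8% and 17.7% of all genes. The median difference of the 9 genes over both diets was 0.02, and that of all genes was 0.01.

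The maternal diet comparison, undernourished minus control, called 0% of all genes in limited medium, in standard medium and over both media, and 0 of the 9 genes. At an unadjusted p under 0.05 these comparisons held 5.44%, 3.14% and 3.57% of all genes and 0 of the 9. Over both media, with the arrays of each culture averaged first, the differences ran from -0.08 ± 0.14 for Pax7 to 0.08 ± 0.09 for Mef2a, with an adjusted p of 0.9991 for every member. The intervals show how far each gene was resolved: Mymk had a 95% interval of -0.11 to 0.19, Myod1 of -0.30 to 0.25 and Myf5 of -0.47 to 0.51. Myf6, at 0.05 ± 0.44, had an interval of -0.91 to 1.00. In limited medium alone the largest difference was that of Pax7, at -0.24 ± 0.17 (adjusted p = 0.940), and in standard medium alone that of Mef2d, at -0.10 ± 0.10 (adjusted p = 0.9998). For the difference of the medium effect between the diets, 0% of all genes and 0 of the 9 were called, with 2.9% and 0 at an unadjusted p under 0.05.

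**Figure D3:**
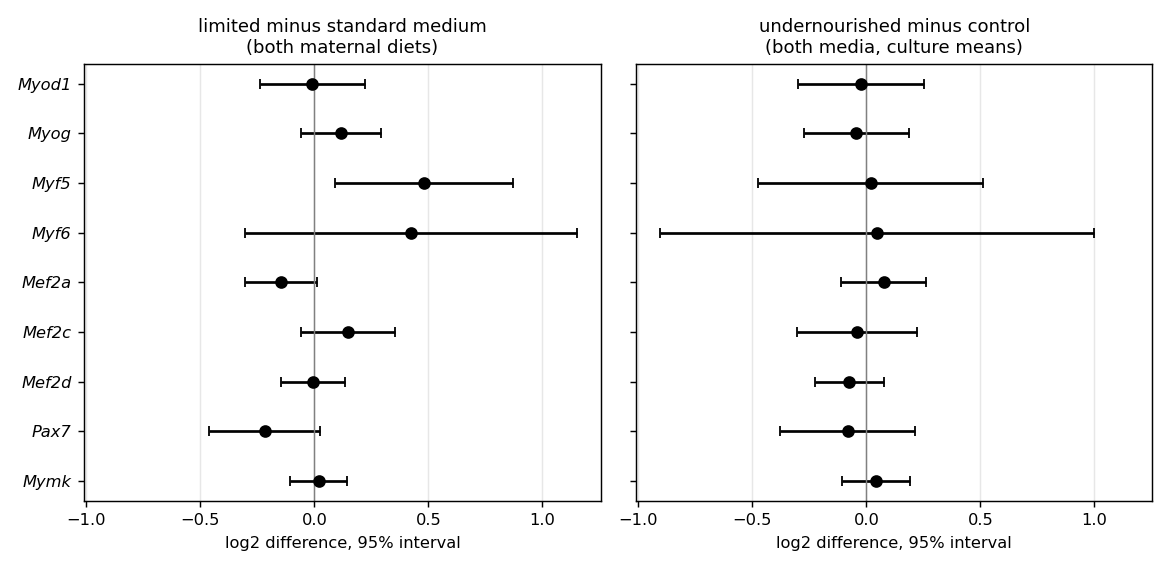
Differences of the 9 genes on the log2 scale (horizontal axis) with 95% intervals from limma, limited minus standard medium over both maternal diets on the left and undernourished minus control over both media on the right. The medium intervals come from the fit without the culture number, where Myf5 alone has an interval above 0, from 0.09 to 0.87. All 9 intervals for the maternal diet include 0. With the culture number as a block, not drawn here, 5 of the 9 genes had an unadjusted p under 0.05 for the medium in limma.

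Genes that act with or under these regulators were read from lists chosen with earlier results of these data known, so their counts are descriptions. Of all genes, 3.56% rose and 3.28% fell in limited against standard medium over both diets, 6.84% in all. Refitted on the 11090 genes with a mean at or above the median, 958 rose and 836 fell, 16.2% in all. Of 38 measured target genes of differentiated muscle, 4 rose and 0 fell, beside 3.56% and 3.28% of all genes, with a median difference of 0.10. In the refit on brighter genes 4 of 37 targets rose and 0 fell, beside 958 and 836 of 11090. Tnni2, the fast skeletal troponin I, rose by 0.49 ± 0.11 (adjusted p = 0.00963). The muscle creatine kinase Ckm rose by 0.47 ± 0.12 (adjusted p = 0.0171), the acetylcholine receptor subunit Chrne by 0.52 ± 0.15 (adjusted p = 0.0424) and the muscle glycogen phosphorylase Pygm by 0.22 ± 0.06 (adjusted p = 0.0269). Chrne and Pygm were higher in limited medium in 12 of 12 cultures, Tnni2 in 11 and Ckm in 10. In undernourished cultures Ckm averaged 11.07 ± 0.38 in limited and 10.57 ± 0.40 in standard medium, and in control cultures 11.12 ± 0.24 in limited and 10.69 ± 0.17 in standard medium (SD, n = 6).

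Satellite cell and myoblast markers had 3 of 20 measured genes lower in limited medium and 0 higher, beside 3.28% and 3.56% of all genes, with a median difference of -0.06. In the refit on brighter genes 3 of 17 fell, beside 836 of 11090. Met, the receptor of hepatocyte growth factor, fell by 0.56 ± 0.12 (adjusted p = 0.00714). The adhesion molecule Vcam1 fell by 0.45 ± 0.10 (adjusted p = 0.00854), in 12 of 12 cultures, and the fibroblast growth factor receptor Fgfr1 fell by 0.30 ± 0.09 (adjusted p = 0.0354). Within undernourished cultures alone Vcam1 passed as well (-0.59 ± 0.15, adjusted p = 0.0409). Beside this list, 0 of 11 proliferation markers passed and 3 lay at an unadjusted p under 0.05, against 6.84% and 20.3% of all genes. Their median difference was -0.18, and the nearest was the cyclin Ccna2 at -0.73 ± 0.26 (adjusted p = 0.0989). At an unadjusted p under 0.05 lay 5 of 11 in undernourished cultures (median -0.44) and 0 in control cultures (median -0.14), against 13.4% and 13.1%. With the culture number as a block 3 of 11 fell, where 11.7% of all genes were called. Between maternal diets in standard medium all 11 were higher in undernourished arrays (0.08 to 0.49), and 0 passed.

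In the fusion machinery, 2 of 31 measured genes fell and 0 rose, with a median difference of -0.04, a share near the 6.84% of all genes called. In the refit on brighter genes 2 of 25 fell and 1 rose, where 16.2% of those genes were called. The junctional adhesion molecule Jam3 fell by 0.53 ± 0.11 (adjusted p = 0.00556), in 12 of 12 cultures. Its mean was 8.71 ± 0.29 in undernourished limited and 9.34 ± 0.37 in undernourished standard arrays, and 8.81 ± 0.32 in control limited and 9.24 ± 0.17 in control standard arrays (SD, n = 6). Myof, encoding the membrane protein myoferlin, fell by 0.35 ± 0.10 (adjusted p = 0.0372). Jam3 also passed within undernourished cultures (-0.63 ± 0.16, adjusted p = 0.0452).

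In the 3 lists of genes that bind or control the regulators, 1 of 14, 1 of 20 and 2 of 22 genes passed, near the 6.84% called over all genes. In the refit on brighter genes 1 of 14 and 1 of 18 fell and 3 of 19 rose, where 16.2% of those genes were called. Among 14 MEF2 corepressors and coactivators, Hdac9, a class IIa histone deacetylase, fell by 0.51 ± 0.10 (adjusted p = 0.00323), over both diets and, at -0.58 ± 0.14 (adjusted p = 0.0391), within undernourished cultures. It averaged 6.09 ± 0.28 in undernourished limited and 6.67 ± 0.26 in undernourished standard arrays, and 6.36 ± 0.31 in control limited and 6.80 ± 0.19 in control standard arrays (SD, n = 6). Among 20 partners and antagonists of the helix-loop-helix factors, the Notch target Hes1 fell by 0.41 ± 0.12 (adjusted p = 0.0449). Among 22 upstream regulators, the RNA-binding protein gene Rbm38 rose by 0.33 ± 0.10 (adjusted p = 0.0489) and the transcription factor gene Klf5 by 0.31 ± 0.10 (adjusted p = 0.0494). No gene of any of these lists passed for the maternal diet or for the difference of the medium effect between diets.

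Leaving out each of the 12 cultures in turn kept the calls of Hdac9, Jam3, Met, Vcam1 and Tnni2 over both diets in 12 of 12 fits. Ckm lost its call only without undernourished culture 4 (adjusted p = 0.0628). Pygm kept its call in 8 of the 12 fits, Myof in 5, Fgfr1 in 4, Chrne and Hes1 in 3 each, and Rbm38 and Klf5 in 2 each. For these 7 genes the highest adjusted p lay between 0.0824 for Pygm, without culture 4, and 0.119 for Klf5, without culture 15, and every difference kept its sign. After quantile normalization of the deposited values Klf5, Rbm38 and Pygm did not pass (adjusted p = 0.103, 0.0692 and 0.0564). The calls within undernourished cultures were less firm, with 4 of 12 fits for Hdac9, 3 for Vcam1 and 1 for Jam3, and highest adjusted p of 0.144, 0.122 and 0.162. Without cultures 16 and 20, 897 of all 22180 genes rose and 758 fell, 7.46% in all. In that fit 2 of the 38 targets rose and 1 of the 22 upstream regulators, while 2 of the 14 MEF2 cofactors and 3 of the 31 fusion genes fell. Of the satellite cell and myoblast markers 3 of 20 fell, and of the partners and antagonists 1 of 20.

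The SD of culture means exceeded the SD of the differences between media most for Myf6, 1.48 times. It did so for Myog (1.24), Mef2c (1.12) and Myf5 (1.11) as well, and for no other member. A ratio of 1 is not a neutral point, since a mean averages the 2 arrays that a difference subtracts. Over genes with a mean at or above the median, the median ratio was 0.657. Myod1 (0.811), Pax7 (0.802), Mef2a (0.76) and Mymk (0.678) lay above that too, and Mef2d (0.502) below it. The mean of Myf6 over both arrays of a culture ran from 8.12 in control culture 15 to 10.82 in control culture 24, and the SD over the 12 cultures was 0.868. Of the brighter genes, those with a mean at or above the median, 99.7% had a lower SD, and their median SD was 0.158. Myf5 ran from 8.17 in undernourished culture 20 to 9.58 in undernourished culture 4, with an SD of 0.442 (96.1% of these genes lower). Pax7 had an SD of 0.26 and Myod1 one of 0.24. Mef2d and Mymk lay at the other end, with SDs of 0.115 and 0.11 and 21.6% and 18.8% of these genes lower.

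Among the 36 pairs of members, 2 were correlated over the 12 culture means past an adjusted p of 0.05 by both Pearson's r and Spearman's rho (permutation tests with 100000 resamples, two-sided, adjusted over the 36 pairs). Myf6 and Pax7 had r = 0.81 (p = 0.00206, adjusted p = 0.0371) and rho = 0.85 (p = 0.00073, adjusted p = 0.0209). The 5 cultures highest in Myf6, numbers 4, 5, 9, 20 and 24, were also the 5 highest in Pax7. Without cultures 15 and 24, the farthest from the median of Myf6, r was 0.83 (permutation p = 0.00393), and within the diets it was 0.95 over 6 undernourished and 0.85 over 6 control cultures. Over the 12 limited arrays alone r was 0.58, and over the 12 standard arrays 0.78.

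Myod1 and Myog, the gene pair with the promoter shown above, had r = 0.77 (p = 0.0019, adjusted p = 0.0371) and rho = 0.84 (p = 0.00116, adjusted p = 0.0209). Without cultures 20 and 24, the farthest from the median of Myod1, r was 0.63 (permutation p = 0.0498). Within the diets r was 0.73 over 6 undernourished and 0.97 over 6 control cultures. Over limited arrays alone it was 0.62, and over standard arrays 0.79. Next in order came Myod1 with Mymk (r = 0.76, adjusted p = 0.0559) and Myog with Mymk (r = 0.72, adjusted p = 0.0654), neither past the threshold. Pairs outside the members were not counted, so no share over all gene pairs stands beside the 2 that passed. Over the same culture means r was 0.90 for Myod1 with Map2k2 and 0.90 for Myog with Tor3a, genes picked from 10358 for their likeness. Whether Myod1 and Myog are linked beyond variation shared by many genes was not tested. Myf5 and Myf6 are neighbours in the genome by the RefSeq annotation, Myf6 being the next protein-coding gene to Myf5.

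**Figure D4:**
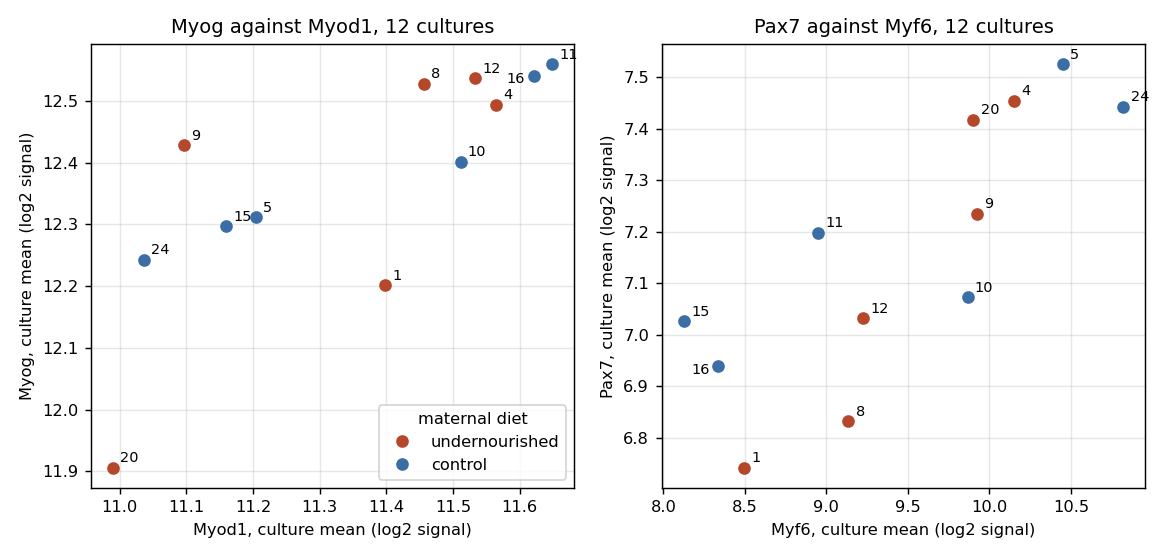
Mean log2 signal of the 2 arrays of each culture, Myog against Myod1 on the left and Pax7 against Myf6 on the right; dots are cultures, coloured by maternal diet and marked by their number. Undernourished culture 20 is lowest in both genes on the left, and cultures 4, 5, 9, 20 and 24 are the 5 highest in both Myf6 and Pax7.

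The genes whose signal over the 24 arrays was most like that of each member were looked up among 10358 named genes with a mean at or above the median, as a description. Arrays share culture, medium and normalization, so these values carry no test. Myf6 was closest to Fsd2 (Pearson's r = 0.90), the sarcomeric mitochondrial creatine kinase Ckmt2 (0.88) and the Z-disc protein gene Myot (0.88). Myf5 was closest to the growth factor gene Fgf9 (0.81), the AMP kinase subunit Prkag2 (0.76) and the respiratory chain subunit Ndufa1 (0.75). Myod1 was closest to the actin regulator Vasp (0.84), the kinase gene Map2k2 (0.83) and Tspan33 (0.82), and Myog to Tor3a (0.85), the phosphatase gene Ppm1d (0.82) and Ehd1 (0.81). For Mef2a the nearest were the chloride transporter Clcn5 (0.92), the Hippo kinase Lats2 (0.89) and Phka2 (0.88), for Mef2c Slco5a1 (0.86), Fxyd6 (0.83) and Strn3 (0.79), and for Mef2d Ubap2 (0.79), Nfix (0.76) and Zmiz2 (0.76). Pax7 was nearest to the Slit receptor Robo1 (0.86), Abracl (0.84) and Olfml2b (0.82). Mymk was nearest to Pdcd6ip (0.86), the dystroglycan gene Dag1 (0.83) and Bag6 (0.83).

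The cultures carried muscle transcripts throughout: Myh3, the embryonic myosin heavy chain, lay between 12.78 and 13.23 and the skeletal actin Acta1 between 12.90 and 13.42 on all arrays. Markers of other cell types were unevenly spread over cultures. The mean of 8 fibroblast and fibro-adipogenic markers was 7.57 in control culture 16, 7.45 in undernourished culture 20 and 6.40 in control culture 24, and at most 5.99 in the other cultures. Culture 20 also had the highest mean of 5 Schwann and glial markers, 7.63, followed by cultures 16 (6.03) and 24 (5.95), with at most 5.26 elsewhere. Cultures 20 and 16 were the lowest in Myf5 (8.17 and 8.18), while culture 24 was the second highest (9.33). Cultures 20 and 24 were the lowest in Myod1 (10.99 and 11.04), while culture 16 was the second highest (11.62). The part of these cells in the members' values was not tested, and the fits without cultures 16 and 20 kept culture 24. By group, the fibroblast list ranged from 5.50 to 7.53 in undernourished limited and 5.64 to 7.37 in undernourished standard arrays, and from 5.85 to 7.86 in control limited and 5.77 to 7.27 in control standard arrays. The glial list ranged from 5.08 to 7.63 and 4.93 to 7.63 in the undernourished limited and standard arrays, and from 5.07 to 6.06 and 5.07 to 6.00 in the control limited and standard arrays.

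Between media over both diets, limma called 0 of 8 fibroblast, 0 of 5 glial and 0 of 6 endothelial markers. It also called 0 of 6 leukocyte, 0 of 7 smooth muscle and pericyte and 0 of 6 adipocyte markers, beside 6.84% of all genes. Many of these markers were dim. At or above the median level lay 4 fibroblast, 1 glial, 0 endothelial, 2 leukocyte, 5 smooth muscle and pericyte and 0 adipocyte markers. The counts of 0 therefore do not show that these cells were equally frequent in both media. At an unadjusted p under 0.05 lay 2 of these markers, against 20.3% of all genes. They were the macrophage gene Lyz2 (-0.25 ± 0.11, adjusted p = 0.18) and the pericyte gene Rgs5 (-0.19 ± 0.08, adjusted p = 0.201). Of 4 tenocyte markers, the tendon transcription factor Scx rose by 0.46 ± 0.11 (adjusted p = 0.0103) and kept that call in 12 of 12 fits without a culture. Scx averaged 9.68 ± 0.15 in undernourished limited and 9.49 ± 0.21 in undernourished standard arrays, and 10.07 ± 0.34 in control limited and 9.33 ± 0.37 in control standard arrays (SD, n = 6). Within control cultures it passed as well (0.74 ± 0.15, adjusted p = 0.0357), in 7 of the 12 fits without a culture, with a highest adjusted p of 0.135 without culture 5.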

How the data were processed

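Biotin-labelled RNA, extracted with Trizol per the labels' protocols, was hybridised to 24 arrays. The deposited values were made with RMA in Affymetrix Expression Console, per the submitters' processing notes, and were taken as log2 signal from their range (1.69 to 14.1; array medians 5.60 to 5.81). Not given in the sources used here are the log base, tool versions and genome build. No arrays held identical values, and precision is limited by the number of arrays. Of 41345 clusters, 23521 had 1 symbol (updated through RefSeq, GRCm38.p6, for 23328), and 1814 with several and 16010 unnamed here were left out. Of 1082 genes with several clusters the highest-mean cluster was used, which left 22180 genes without a filter on dim ones.

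Limma 3.58.1 (R 4.3.3; lmFit and eBayes, two-sided, Benjamini-Hochberg over all genes, threshold 0.05) was fitted to 24 arrays in 4 groups, without the culture number, and for the maternal diet over both media to 12 culture means. Array normalization, a dim-gene filter, array weights, the variance prior, the culture number, the title number and single cultures were varied. The fits were tested on simulated data. The 9 members, 14 other lists (207 of 217 entries measured, members included) and all tests were chosen with earlier results of these data known. Named were all members, the 3 genes most correlated with each (mean at or above the median, no model, clone or small RNA symbols), up to 4 called genes per list and direction, and otherwise up to 3 with the smallest p as not past the threshold.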

Additional observations from a re-analysis of the deposited data

Results flagged for a closer look

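Among the 36 sets of 6 arrays (9 genes in 4 groups), 1 held an array far from the rest. Mymk in control limited arrays was lowest in culture 24, at 12.97, while the other 5 arrays lay between 13.26 and 13.43; the gap was 0.637 of the whole range, above Dixon's critical value of 0.625. Chance gives such a gap in about 1 in 20 sets. In standard medium the same culture had 13.22. Culture 24 also had the highest Myf6 mean and the lowest Mef2a mean of the 12 cultures, at 10.82 and 12.17.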

How the results depend on the processing

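The number of members past the threshold was 0 in all comparisons and alternatives except 2 for the medium over both diets. It was 1 with the replicate block, which compares the media within each culture number, and 1 without cultures 16 and 20. Both times the gene was Myf5, with adjusted p = 0.00544 (0.48 ± 0.10) and 0.04999. The block called 2597 genes (11.7%) over both diets, 1007 in undernourished and 551 in control cultures, and changed no other member's call. With it 8 of 38 targets rose, 2 fusion genes rose and 3 fell, and 3 of 11 proliferation markers fell. Arrays of one number deviated together with correlations from -0.05 to 0.56, over 0.1 in 10 of 12 cultures, and 10 of 12 numbers correlated best with their own, a hint from the data, since the labels give both arrays the number without saying what it marks. Leaving out single cultures gave 0 members each time, with a lowest adjusted p over both diets of 0.0897 to 0.277, and 991 to 1603 called genes there, 51 to 469 in undernourished and 10 to 162 in control cultures. Array weights called 2099, 571 and 275 genes in these comparisons, the filter on dim genes 1794, 471 and 149, and the fit without cultures 16 and 20 called 1655, 494 and 115. With only the groups compared, 59 genes were called within either diet. For the diet in limited medium, array weights called 1 gene, and leaving out culture 20, alone or with culture 16, called 2. In control cultures 37 of 76 called genes were higher, and 31 of 82 after quantile normalization, 89 of 149 with the filter and 159 of 275 with array weights. Of 1287 recomputed member differences, 124 changed sign, none of them past the threshold in either setting, and 2 moved by 1 SE or more, both of Myog between diets without cultures 16 and 20 (0.06 in standard medium and 0.08 over both). The 18 calls of other list genes, recomputed after their values were seen, were kept in 254 of 364 fits and never changed sign. The number of arrays limits what can be resolved.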
